A study of Mus musculus with 6 samples.

Results

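Expression of 7 genes for C-type lectin receptors, Clec4d, Clec4e, Clec4n, Clec4b1, Clec4a2, Clec4a3 and Clec7a, was measured in 3 fractions of sorted mouse bone marrow cells. The genes were found by symbol: 10 of 45101 probe sets were annotated to exactly 1 of them, and each gene was read from its probe set with the highest mean over the 6 arrays. They are 7 of 18194 genes measured in this way. The list was put together with earlier results of these data known. Clec4d and Clec4e came to notice through the difference between E2A-KO LMPP and WT LMPP, where they had the 6th and 8th largest measured rises, so values of the 7 genes in that comparison are given as a description with no p-value, and the number past the threshold is printed only beside that of all genes.

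The groups were E2A-KO LMPP, WT LMPP and WT LSK FLT3-, with 2 Affymetrix arrays each. LMPP were lineage-negative, SCA1-positive and KIT-positive cells with high surface FLT3, known as lymphoid-primed multipotent progenitors, and LSK FLT3- cells were negative for surface FLT3 in that gate, where hematopoietic stem cells are found. All cells were from adult bone marrow; wild-type mice were C57bl/6, and the E2A-KO mice, which lack the E proteins encoded by Tcf3, were on that background. The series states as its goal the comparison of knockout with wild-type LMPP. The sources used here do not say how the allele was made, nor whether the 2 arrays of a group hold RNA from different mice, pools or sorts. P-values therefore measure array-to-array spread, possibly only technical. In sorted populations, fewer cells of a type and less RNA per cell cannot be told apart.

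C-type lectin receptors of this family are pattern receptors of macrophages, monocytes, neutrophils and dendritic cells that bind sugars and glycolipids of fungi and mycobacteria. MCL (Clec4d), Mincle (Clec4e), Dectin-2 (Clec4n) and DCAR (Clec4b1) signal through the FcRγ adaptor encoded by Fcer1g and the kinase Syk. Dectin-1 (Clec7a) engages Syk through a motif in its own tail, and both routes lead to a complex of Card9, Bcl10 and Malt1. DCIR (Clec4a2) carries an inhibitory tail motif that recruits phosphatases such as those encoded by Ptpn6 and Ptpn11.

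Each array gave 45101 values, with medians of 3.90 to 4.04 (log2). The upper quartile (log2) ran from 5.78 to 5.82 over the 4 LMPP arrays, against 6.13 and 6.15 for WT LSK FLT3-. The lower quartile went the other way, at 3.19 to 3.22 in LMPP against 3.04 on each WT LSK FLT3- array. Values were thus spread wider in WT LSK FLT3-, a general difference that moves with the stage and differs in sign between bright and dim probe sets. Replicates correlated across probe sets at r = 0.990 in E2A-KO LMPP, 0.989 in WT LMPP and 0.996 in WT LSK FLT3-. The 3 probe sets of Tcf3 averaged 6.66, 4.11 and 3.16 (log2) in E2A-KO LMPP, 6.90, 4.20 and 3.49 in WT LMPP and 7.34, 5.08 and 3.76 in WT LSK FLT3-. The position of these probe sets with regard to the deleted sequence is unknown here, so Tcf3 does not check the genotype labels. The gate gene Flt3 was at 10.71 and 10.76 (log2) in E2A-KO LMPP, 10.80 and 10.81 in WT LMPP and 8.87 and 8.76 in WT LSK FLT3-. Kit was at 8.85 and 8.47 in E2A-KO LMPP, 9.05 and 8.91 in WT LMPP, and 10.055 and 10.38 in WT LSK FLT3-. WT LMPP minus WT LSK FLT3- was -1.24 for Kit (limma adjusted p = 0.00124). The lineage genes Cd3e and Cd79a were higher in WT LMPP by 0.59 and 0.72 (limma adjusted p = 0.0155 and 0.00686). Those 2 calls were lost in 3 of 13 and 1 of 12 alternative settings.

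Clec4d and Clec4e, a neighbouring gene pair whose products form a complex at the cell surface, were low in WT LMPP and higher in both other groups. Clec4d, the receptor MCL, had log2 intensities of 6.74 and 7.13 in E2A-KO LMPP, 5.005 and 4.995 in WT LMPP, and 7.21 and 7.02 in WT LSK FLT3-. The 2 WT LMPP arrays lay below the other 4, and the E2A-KO LMPP and LSK FLT3- arrays overlapped. Clec4d was 1.94 higher in E2A-KO LMPP than in WT LMPP on the log2 scale (SE 0.16), or 3.83-fold, and 2.12 lower in WT LMPP than in WT LSK FLT3- (-2.12, SE 0.16), or 4.33-fold lower.

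Clec4e, the glycolipid receptor Mincle, had log2 intensities of 6.07 and 5.93 in E2A-KO LMPP, 4.12 and 4.19 in WT LMPP, and 7.23 and 7.18 in WT LSK FLT3-. None of the 3 groups overlapped, and E2A-KO LMPP lay between WT LMPP and WT LSK FLT3-. The difference was 1.85 (SE 0.13), or 3.60-fold, for E2A-KO LMPP minus WT LMPP, and -3.06 (SE 0.13), or 8.31-fold lower, for WT LMPP minus WT LSK FLT3-. Both WT LMPP values were just above their array median, in the low range where array differences tend to be compressed.

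Measured values in E2A-KO LMPP lay nearer to WT LSK FLT3- for Clec4d than for Clec4e. This is a description, as the pair was noticed through the same E2A-KO LMPP arrays. The 2 genes were not tested against each other. Clec4d averaged 6.94 ± 0.28 in E2A-KO LMPP (log2, SD, n = 2), against 7.12 ± 0.14 in WT LSK FLT3-, a difference of -0.18 with a 95% interval of -0.54 to 0.19. For Clec4e the averages were 6.002 ± 0.09 in E2A-KO LMPP, against 7.21 ± 0.04 in WT LSK FLT3-, a difference of -1.21 with an interval of -1.50 to -0.92. The Clec4d difference turned positive with quantile normalization of the 6 arrays (0.28) and without E2A-KO LMPP replicate 1 (0.018), while that of Clec4e stayed between -1.34 and -0.78 over 13 alternative settings, with quantile normalization at -0.78. The 3 differences share arrays pairwise and are not separate evidence.

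A second Clec4e probe set, dimmer than the one used, gave the same order. Its log2 values were 4.30 and 3.95 in E2A-KO LMPP, 2.87 and 3.35 in WT LMPP, and 5.41 and 5.05 in WT LSK FLT3-. Its groups did not overlap either, and its differences were 1.02 (SE 0.21) for E2A-KO LMPP minus WT LMPP and -2.12 (SE 0.21) for WT LMPP minus WT LSK FLT3-. Both WT LMPP arrays were below the array median here. Clec4d had 1 probe set, of the "s" type that may match more than 1 transcript.

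**Figure D1:**
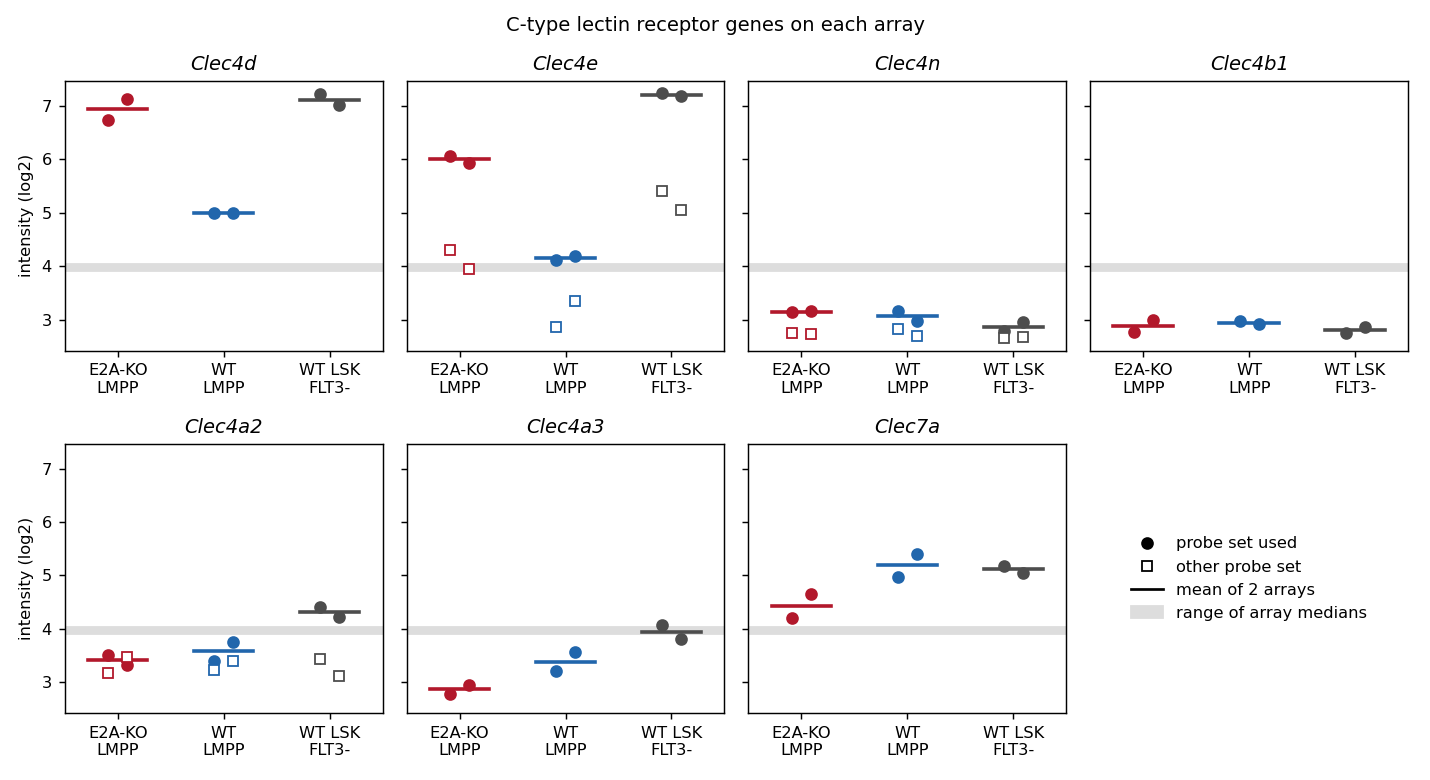
Log2 intensity of the 7 receptor genes on each array, with E2A-KO LMPP, WT LMPP and WT LSK FLT3- from left to right in each panel; filled circles are the probe set used, open squares other probe sets of the gene, lines the mean of 2 arrays, and the grey band the range of the array medians (3.90 to 4.04). Clec4d and Clec4e dip in WT LMPP, while Clec4n and Clec4b1 stay below the band on all 6 arrays.

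The sequences before the start sites of the pair are shown because both neighbouring genes had like profiles and because E2A proteins bind E-boxes. They are the 250 bases upstream of the RefSeq start site, on build GRCm38.p6, chr6:123261857-123262106 on the plus strand for Clec4d and chr6:123289872-123290121 on the minus strand for Clec4e. Capitals mark E-boxes (CANNTG) and the ETS-type core GAGGAA, which reads TTCCTC on the other strand.
Clec4d: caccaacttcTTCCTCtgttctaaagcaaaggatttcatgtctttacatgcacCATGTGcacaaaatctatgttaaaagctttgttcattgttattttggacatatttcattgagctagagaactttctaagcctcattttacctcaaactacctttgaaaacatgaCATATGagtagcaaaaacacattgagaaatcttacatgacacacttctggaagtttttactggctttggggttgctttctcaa
Clec4e: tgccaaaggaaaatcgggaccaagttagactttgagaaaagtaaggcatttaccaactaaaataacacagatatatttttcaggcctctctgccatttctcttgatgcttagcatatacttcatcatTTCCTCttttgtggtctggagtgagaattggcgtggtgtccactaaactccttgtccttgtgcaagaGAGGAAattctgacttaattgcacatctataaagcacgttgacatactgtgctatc

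Clec4d had 2 E-boxes in this window, 197 to 192 and 83 to 78 bases before the start site, and 1 GAGGAA core. Clec4e had 0 E-boxes and 2 GAGGAA cores, 123 to 118 and 56 to 51 bases before its start site. Of the 7 genes, 6 had a promoter entry, and 5 of those 6 held an E-box, against 66% of 27025 genes with an entry. GAGGAA was in 4 of 6, against 23.1%. These counts and shares use the first listed start site of each gene, and the window of a second Clec4a3 start site also held GAGGAA (as TTCCTC, 50 to 45 bases before it). The E-box forms CAGCTG and CAGGTG, which are also counted as CANNTG, were in 0 of 6, against 12.8% and 17.1%. The C/EBP-type motif TTGCNNAA was in 1 of 6, that of Clec4e (66 to 59 bases before the start), against 9.55%. Both strands were searched, and a match is a description of letters only.

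Clec4n, Dectin-2, the receptor for fungal mannans, stayed in the low range throughout. Its log2 intensities were 3.13 and 3.16 in E2A-KO LMPP, 3.16 and 2.98 in WT LMPP, and 2.79 and 2.95 in WT LSK FLT3-. All 6 arrays were below their median, and the second probe set ran from 2.65 to 2.83. WT LMPP minus WT LSK FLT3- was 0.20 (95% interval -0.11 to 0.51, limma adjusted p = 0.28), and E2A-KO LMPP minus WT LMPP was 0.08 (SE 0.14).

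Clec4b1, the FcRγ-coupled receptor DCAR, had log2 intensities of 2.78 and 2.99 in E2A-KO LMPP, 2.97 and 2.92 in WT LMPP, and 2.75 and 2.87 in WT LSK FLT3-. These too were below the array median on all 6 arrays, and E2A-KO LMPP overlapped both other groups. WT LMPP minus WT LSK FLT3- was 0.13 (interval -0.17 to 0.44, limma adjusted p = 0.466), and E2A-KO LMPP minus WT LMPP was -0.06 (SE 0.14). In this range the arrays cannot tell a low level from none, so neither gene is shown to be equal between groups.

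Clec4a2, the inhibitory receptor DCIR, was lower in WT LMPP than in WT LSK FLT3- by the probe set used. Its log2 intensities were 3.52 and 3.33 in E2A-KO LMPP, 3.41 and 3.76 in WT LMPP, and 4.41 and 4.22 in WT LSK FLT3-. The 2 LSK FLT3- arrays lay above the other 4, which overlapped and were below the array median. WT LMPP minus WT LSK FLT3- was -0.73 (SE 0.16, limma adjusted p = 0.00928), and E2A-KO LMPP minus WT LMPP was -0.16 (SE 0.16). The other probe set of Clec4a2 did not show this, with a stage difference of 0.04 (SE 0.17) at levels of 3.13 to 3.48, nor did one annotated to both Clec4b1 and Clec4a2, at 0.27 (SE 0.19) and levels of 4.34 to 5.15. The call was lost with the mean of both Clec4a2 probe sets (-0.35, limma adjusted p = 0.0801) and without WT LSK FLT3- replicate 1 (-0.64, 0.0912).

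Clec4a3, a close relative of Clec4a2, was highest in WT LSK FLT3- and lowest in E2A-KO LMPP. Its log2 intensities were 2.79 and 2.95 in E2A-KO LMPP, 3.22 and 3.56 in WT LMPP, and 4.07 and 3.81 in WT LSK FLT3-. The 3 groups did not overlap, and 1 array, of WT LSK FLT3-, was above its median. WT LMPP minus WT LSK FLT3- was -0.55 (SE 0.16, limma adjusted p = 0.0316), and E2A-KO LMPP minus WT LMPP was -0.52 (SE 0.16). The stage call was lost without WT LMPP replicate 1 (-0.38, limma adjusted p = 0.145), without WT LSK FLT3- replicate 1 (-0.42, 0.22) and without WT LSK FLT3- replicate 2 (-0.68, 0.0753).

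Clec7a, the beta-glucan receptor Dectin-1, lies apart from the others on the chromosome and was lowest in E2A-KO LMPP. Its log2 intensities were 4.21 and 4.65 in E2A-KO LMPP, 4.98 and 5.40 in WT LMPP, and 5.18 and 5.05 in WT LSK FLT3-. The E2A-KO LMPP arrays lay below the other 4, and the wild-type groups overlapped. E2A-KO LMPP minus WT LMPP was -0.76 (SE 0.19), opposite in sign to Clec4d and Clec4e, and WT LMPP minus WT LSK FLT3- was 0.07 (95% interval -0.36 to 0.50, limma adjusted p = 0.798).

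**Figure D2:**
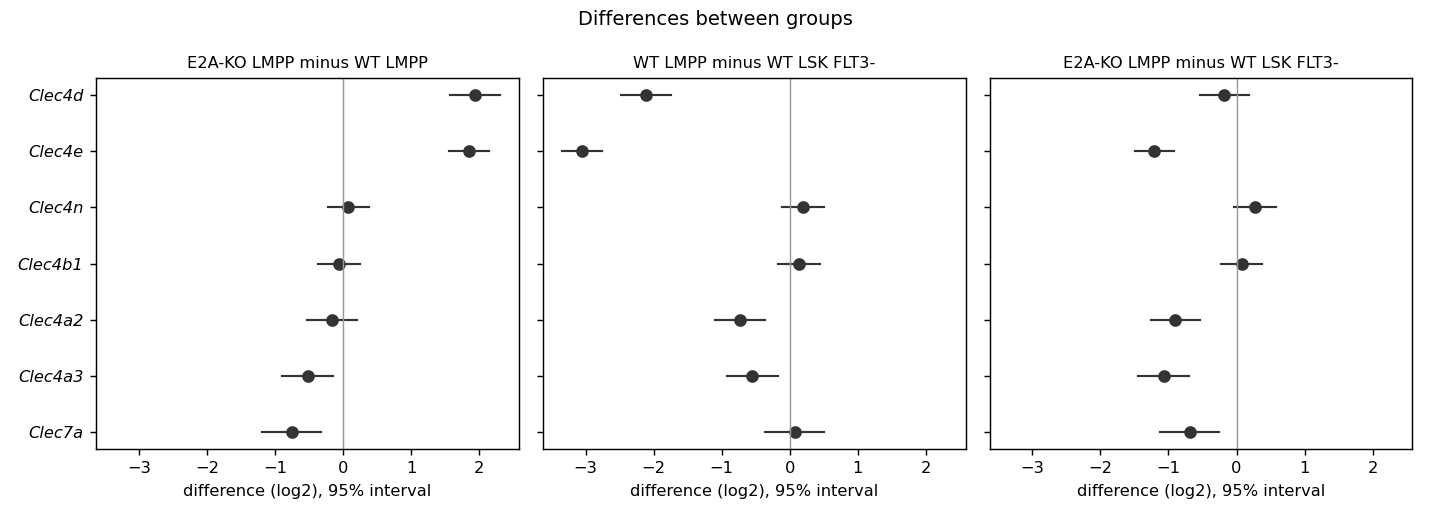
Differences between groups for the 7 genes (log2, x axis), with 95% intervals from the model as lines; the panels show E2A-KO LMPP minus WT LMPP, WT LMPP minus WT LSK FLT3- and E2A-KO LMPP minus WT LSK FLT3-. Clec4d and Clec4e lie at 1.94 and 1.85 in the first panel and at -2.12 and -3.06 in the second. The pair was noticed through the difference in the first panel, with which the other panels share arrays, so its intervals are a description and no test.

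Between the wild-type stages, 0 of the 5 genes other than Clec4d and Clec4e were higher in WT LMPP and 2 were lower (limma, adjusted p below 0.05; also 0 higher and 2 lower at an unadjusted p below 0.05). Over all 18194 genes 34.1% were called, 10.4% higher and 23.7% lower, and at this background 2 of 5 is no result about the family. Of all calls in this comparison 30.5% were higher in WT LMPP, a share of 47.4% with quantile normalization and 17.8% with arrays centred on their medians. Clec4d and Clec4e were called lower as well, and since their selection used the same WT LMPP arrays nothing is read from that. The median difference was 0.07 over the 5 other genes and -0.55 with Clec4d and Clec4e included, against -0.01 for all genes.

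In E2A-KO LMPP against WT LMPP, Clec4d and Clec4e were past the same threshold and higher by the probe sets used. The second Clec4e probe set did not pass it in a fit over all probe sets. Of the 7 genes, 0 were lower (limma, with 2 lower at an unadjusted p below 0.05). Over all genes 1.37% were called, 0.379% higher and 0.995% lower, and the count only restates how the pair was found. In E2A-KO LMPP against WT LSK FLT3-, 4 of 7 were called lower and 0 higher (limma; 0 higher also at an unadjusted p below 0.05), where 37.5% of all genes were called, 26.5% lower and 11% higher. Clec4d and Clec4e were noticed through the same E2A-KO LMPP arrays, so this count is a description and nothing is read from it. The 4 genes were Clec4e (-1.21), Clec4a3 (-1.07), Clec4a2 (-0.90) and Clec7a (-0.69). The Clec7a call there was lost without E2A-KO LMPP replicate 1, without either WT LSK FLT3- array and with quantile normalization (differences of -0.47, -0.62, -0.75 and -0.64). Of the calls in this comparison 29.3% were higher, a share of 44% with quantile normalization and 14.6% with centred arrays.

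Of the 7 genes, 6 lie in 1 cluster on chromosome 6, in the order Clec4a3, Clec4b1, Clec4a2, Clec4n, Clec4d and Clec4e, with Clec4a1, Clec4a4 and Clec4b2 beside and between them. These 3 had no probe set of their own and were not analysed here. Clec7a is 108 protein-coding genes past Clec4d. The 4 nearest measured genes on each side of the cluster, chosen by position, differed by -0.22 to 0.57 between E2A-KO LMPP and WT LMPP. Clec4n, the immediate neighbour of Clec4d, was at 0.08. On the far side of Clec4e the nearest measured gene was the vomeronasal receptor gene Vmn2r26, whose E2A-KO LMPP arrays averaged 4.06 ± 0.57 (SD, n = 2), against 3.50 ± 0.04 in WT LMPP. Between the stages the 8 neighbours ran from -1.16 (Slc2a3, a glucose transporter gene) to 0.20.

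**Figure D3:**
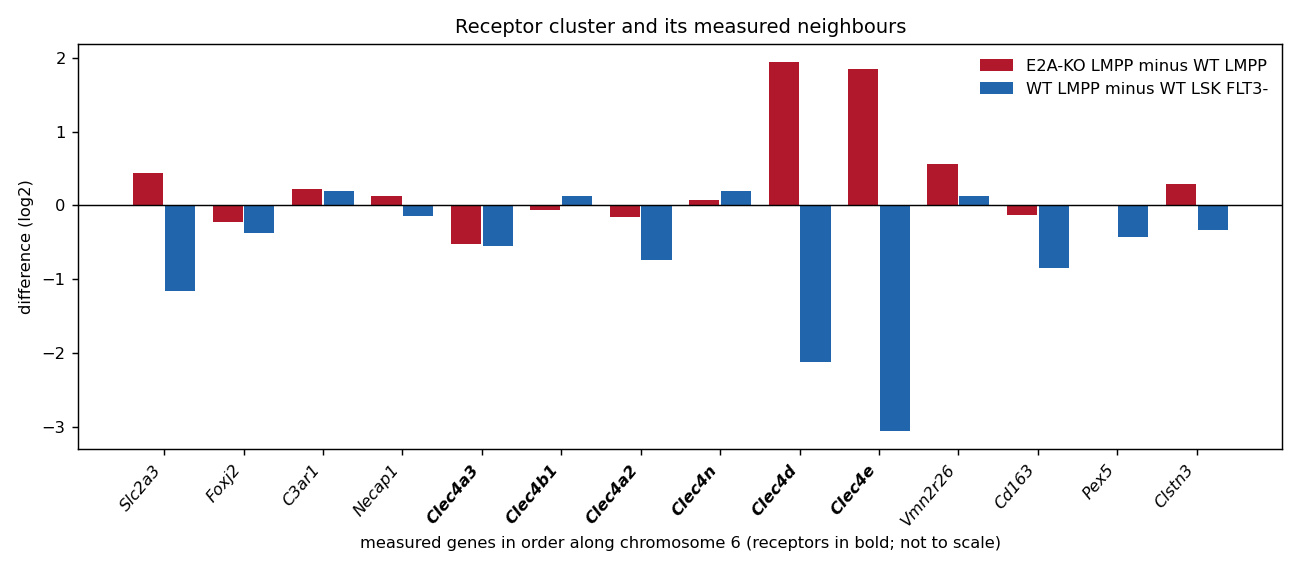
Differences (log2, y axis) for E2A-KO LMPP minus WT LMPP (red) and WT LMPP minus WT LSK FLT3- (blue), with genes in order along chromosome 6, receptors in bold and distances not to scale. The tall paired bars are Clec4d (1.94 and -2.12) and Clec4e (1.85 and -3.06), and Clec4n beside them is at 0.08 and 0.20.

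Other genes whose profile over the 6 arrays was most like that of a receptor were looked up among 1744 genes whose group means spanned at least 1 (log2). Nearest to Clec4e were the mucin gene Muc13 (Pearson's r = 0.997 over 6 arrays), the transcription factor gene Bhlhe40 (0.993) and the deiodinase gene Dio2 (0.992). Muc13 averaged 9.69 (log2) in E2A-KO LMPP, 7.91 in WT LMPP and 10.61 in WT LSK FLT3-. Nearest to Clec4d were the surface glycoprotein gene Thy1 (0.973), the hexokinase gene Hk3 (0.968) and Coq3 (0.967), an enzyme gene of ubiquinone synthesis. Clec4d and Clec4e themselves correlated at r = 0.935. Nearest to Clec4a3 were Pomk (0.996), Cldnd1 (0.996) and Rgcc (0.996), whose means stood in the same order. These values describe 6 arrays in 3 pairs that share their groups.

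Of 20 genes for signalling from these receptors, 16 were measured. None of them passed in E2A-KO LMPP against WT LMPP (limma; 1 higher and 3 lower at an unadjusted p below 0.05), with a median of -0.14. The largest differences there were Traf6 (-0.64), a ubiquitin ligase gene, and Malt1 (0.59), and Traf6 was at -0.084 with the mean of its probe sets. Between the wild-type stages 2 were higher and 4 lower in WT LMPP. Over all genes 10.4% were higher and 23.7% lower, so this count is no result about the list. Fcer1g, the adaptor of Clec4d and Clec4e, had log2 values of 5.96 and 5.72 in E2A-KO LMPP, 5.77 and 6.06 in WT LMPP, and 6.40 and 6.67 in WT LSK FLT3-. It fell by 0.62 between the stages (limma adjusted p = 0.0205) and overlapped between the LMPP genotypes; the call was lost with quantile normalization (-0.24, 0.35) and without WT LMPP replicate 1 or either LSK FLT3- array (adjusted p 0.0939, 0.0574 and 0.166). Syk was at 8.82 and 8.84 in E2A-KO LMPP, 9.23 and 9.26 in WT LMPP, and 9.26 and 9.29 in WT LSK FLT3-.

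Vav1, a Syk substrate gene, and Bcl10 were lower in WT LMPP by 0.69 and 0.69 (limma adjusted p = 0.00468 and 0.00548), and Malt1 was higher by 0.89 (0.0109). All 3 calls depended on the setting: quantile normalization gave -0.29 for Vav1 and -0.37 for Bcl10 (adjusted p 0.168 and 0.0781), and the mean of all probe sets gave 0.10 for Malt1 (0.632). Without 1 array they were lost too, Vav1 without WT LSK FLT3- replicate 1 (0.0611), Bcl10 without replicate 2 of that group (0.0631), and Malt1 without that array (0.101) or WT LMPP replicate 1 (0.0568). The phosphatase gene Ptpn6 lay between 8.58 and 8.82 (log2) on all 6 arrays. Ptpn11 had log2 values of 9.89 and 9.84 in E2A-KO LMPP, 9.70 and 9.89 in WT LMPP, and 10.29 and 10.32 in WT LSK FLT3-. Ptpn11 was lower in WT LMPP than in WT LSK FLT3- by 0.51 (limma adjusted p = 0.0172), a call not run with other settings.

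Of 10 cytokine and inflammatory genes that these receptors can induce in myeloid cells, 4 were higher in WT LMPP than in WT LSK FLT3- and 0 lower. Over all genes 10.4% were higher and 23.7% lower. Whether the receptors bear on these genes in the sorted cells was not tested. The chemokine gene Cxcl1 rose by 1.50 (SE 0.27, limma adjusted p = 0.00413), Ccl3 by 1.01 (0.00738) and Tnf by 0.77 (0.00331). The Cxcl1 value was 0.54 with the mean of its probe sets (adjusted p = 0.015). Ccl3 lost its call without WT LSK FLT3- replicate 2 (0.0792). The fourth was Ptgs2 (0.47, adjusted p = 0.0307), below the array median in both groups, whose call was lost in 5 settings, among them quantile normalization (0.153), median centring (0.0744) and the fits without WT LMPP replicate 2 (0.121) or either LSK FLT3- array (0.118 and 0.183). In E2A-KO LMPP against WT LMPP 0 of 10 passed (limma; 0 higher and 1 lower at an unadjusted p below 0.05), with Il1b at -0.53 and Cxcl1 at -0.31 the largest differences. Il1b was at -0.18 without E2A-KO LMPP replicate 1 and at -0.87 without replicate 2, and Cxcl1 was at 0.080 without WT LMPP replicate 1 and at -0.71 without replicate 2.

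Of 20 other C-type lectin genes measured, 2 were higher and 1 lower in E2A-KO LMPP than in WT LMPP, against 0.379% and 0.995% of all genes. Clec10a, a galactose-type lectin gene of macrophages, had log2 values of 5.95 and 5.96 in E2A-KO LMPP, 4.99 and 5.16 in WT LMPP, and 5.33 and 5.37 in WT LSK FLT3-. It rose by 0.88 (limma adjusted p = 0.0142), Clec2i, a ligand gene of natural killer receptors, rose by 0.88 (0.0164), and Cd93 fell by 0.74 (0.0251). Each of these calls was lost on the 4 LMPP arrays alone (0.0684, 0.0684 and 0.104) and in most fits without 1 array. With the mean of all probe sets, Clec2i (0.80) and Cd93 (-0.51) were not called in this comparison either (limma adjusted p = 0.0994 and 0.114). Mrc1, the macrophage mannose receptor gene, had log2 values of 4.15 and 4.12 in E2A-KO LMPP, 3.43 and 3.53 in WT LMPP, and 4.51 and 4.86 in WT LSK FLT3-. Its group means stood in the same order as those of Clec4e, and its difference of 0.65 between E2A-KO LMPP and WT LMPP missed the threshold (limma adjusted p = 0.0837). Mrc1 was chosen here after its values were seen, and its WT LMPP values were below the array median. The lowest group mean of Clec10a was also that of WT LMPP. Other genes of this list, among them Cd93, Cd69, Klrd1 and Klrk1, had their highest group mean in WT LMPP. Between the stages 5 were higher and 3 lower, against 10.4% and 23.7% of all genes, and nothing is read from this count. There Clec2i (1.55), Cd69 (0.96), Cd302 (-1.35) and Mrc1 (-1.20) had the largest changes (limma adjusted p 0.000124 to 0.00114). With the mean of all probe sets Clec2i was at 0.83 and Cd302 at -0.66, both still called. Of the 4 measured genes from the Clec7a cluster, Clec12b was higher in WT LMPP by 0.51 (limma adjusted p = 0.0451) at 3.74 and 3.78 in WT LMPP and 3.19 and 3.30 in WT LSK FLT3-, below the array median, a call lost in 7 of 12 settings, including every fit without a wild-type array (adjusted p 0.0967 to 0.218). In E2A-KO LMPP against WT LMPP 0 of these 4 passed (0 higher and 1 lower at an unadjusted p below 0.05), with Olr1 at -0.49 and Clec12b at -0.38. Olr1 was at -0.17 without WT LMPP replicate 1 and at -0.81 without replicate 2, and Clec12b was at -0.62 without E2A-KO LMPP replicate 1 and at -0.14 without replicate 2.

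Lists of neutrophil, monocyte and macrophage, and dendritic cell genes were read beside the receptors, which are best known in these cells. Over all genes 0.379% were called higher and 0.995% lower in E2A-KO LMPP than in WT LMPP. Between the stages these shares were 10.4% and 23.7%. Of 10 neutrophil genes measured, 0 rose and 6 fell in E2A-KO LMPP, among them Ngp (-3.59), Ltf (-3.48), Lcn2 (-2.83) and S100a8 (-1.72; limma adjusted p 1.74e-05 to 0.00127). The summed intensity of the 10 on the linear scale was 674 and 656 in E2A-KO LMPP, 2828 and 2785 in WT LMPP, and 1685 and 1604 in WT LSK FLT3-. It was thus highest in WT LMPP, where Clec4d and Clec4e were lowest. The part of such cells in the receptor values was not tested.

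Of 12 monocyte and macrophage genes, 0 rose and 2 fell in E2A-KO LMPP: Csf1r (-1.13) and Mpeg1 (-1.08; limma adjusted p = 0.00811 and 0.0055), and Csf1r was no longer called when E2A-KO LMPP replicate 1 was left out (0.0668) and stood at -0.65 with the mean of its probe sets. At an unadjusted p below 0.05, 2 were higher and 5 lower. The 2 were Cx3cr1, a chemokine receptor gene, at 3.68 and 3.83 (log2) in E2A-KO LMPP and 3.04 and 3.38 in WT LMPP, and Fcgr1, an Fc receptor gene, at 4.16 and 4.19 in E2A-KO LMPP and 3.60 and 3.81 in WT LMPP. Their differences of 0.54 and 0.47 had the sign of Clec4d and Clec4e (limma adjusted p = 0.167 and 0.163). Cx3cr1 and Fcgr1 were named outside the rule for list genes, after their values were seen. Cx3cr1 was below the array median in both LMPP groups, and Fcgr1 was below it in WT LMPP. The 5 lower genes were Csf1r, Mpeg1, Fcgr3 (-0.55), Ccr2 (-0.49) and Lyz2 (-0.48). The sum of the 12 was 991 and 1044 in E2A-KO LMPP, 1882 and 1654 in WT LMPP, and 856 and 848 in WT LSK FLT3-, and Mpeg1, Csf1r and Lyz2 made up 78.4% to 88.1% of it on each array. Between the stages 3 rose, Mpeg1 (3.13), Ccr2 (1.19) and Csf1r (0.88), and 0 fell. The lineage marker gene Itgam averaged 2.77 in E2A-KO LMPP, 2.73 in WT LMPP and 2.87 in WT LSK FLT3- (log2), and Cd14 was at 3.35 to 3.95, both below the array median on all 6 arrays. Of 9 dendritic cell genes 0 passed in E2A-KO LMPP against WT LMPP (limma; 1 higher and 5 lower at an unadjusted p below 0.05; largest differences Xcr1 at -0.58, which was -0.29 without WT LMPP replicate 2 and -0.87 without replicate 1, and H2-Aa at -0.49), and 8 rose between the stages, led by Cd74, H2-Ab1 and H2-Aa (2.99, 2.70 and 2.69). Their sum was 2764 and 2423 in E2A-KO LMPP, 3581 and 3257 in WT LMPP, and 1099 and 1159 in WT LSK FLT3-.

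**Figure D4:**
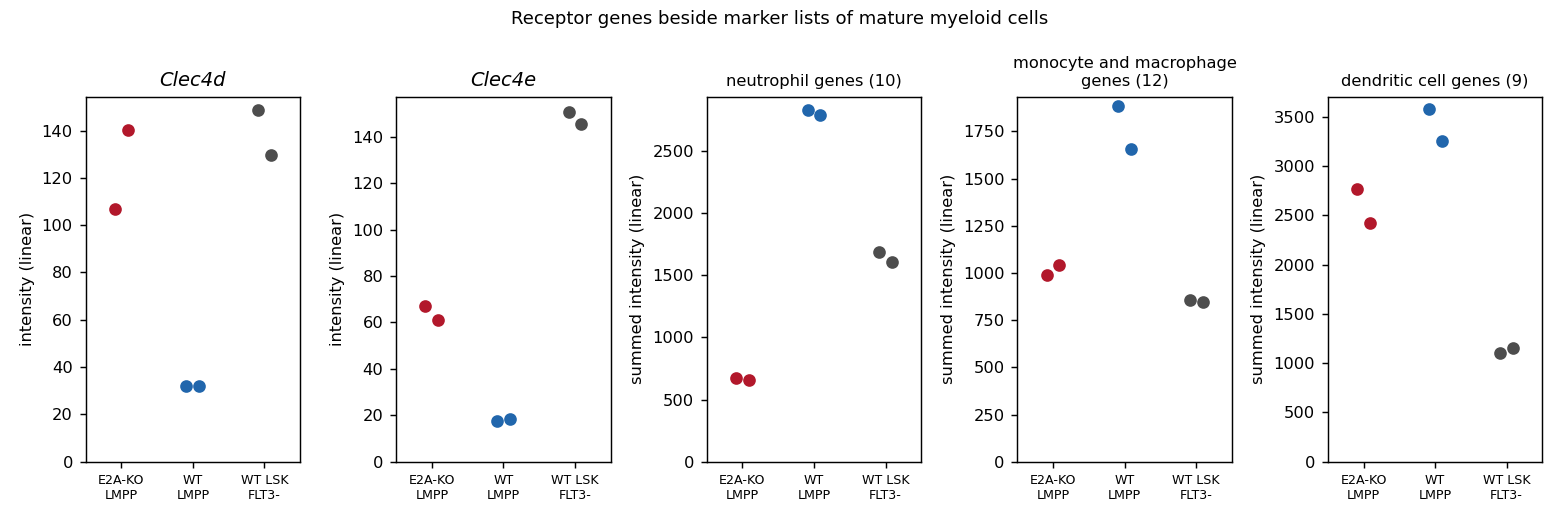
Linear intensity of Clec4d and Clec4e beside the summed linear intensity of 10 neutrophil, 12 monocyte and macrophage and 9 dendritic cell genes on each array (points; groups from left to right E2A-KO LMPP, WT LMPP, WT LSK FLT3-; y axes start at 0 and differ). The sums are highest in WT LMPP, where both receptor genes are lowest, but bright genes weigh most in a sum. Medians of the monocyte and macrophage list (log2, not drawn) were 4.16 and 4.12 in E2A-KO LMPP, 4.16 and 4.32 in WT LMPP, and 4.22 and 4.26 in WT LSK FLT3-. Those of WT LMPP overlapped both other groups, and those of E2A-KO LMPP lay below those of WT LSK FLT3-. Those of the dendritic cell list overlapped between E2A-KO LMPP (4.92 and 5.38) and WT LMPP (5.44 and 5.05).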

How the data were processed

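Each deposited table holds 1 linear intensity per probe set. RMA is the only method that the submitters' processing notes name for what the authors did. Per the labels' protocols, cells were sorted into lysis buffer and the RNA was amplified in a small-sample protocol, which favours the 3' end. No file of other samples was used.

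Titles gave the groups; a free-text label calling all samples wild-type LMPP was set aside. Log2 was taken. Symbols came from the platform annotation, and genes were represented by the single-symbol probe set with the highest mean. limma 3.58.1 in R 4.3.3 fitted 1 mean per group on all 6 arrays, with 3 residual and 5.8 prior degrees of freedom. P-values are two-sided, Benjamini-Hochberg adjusted over 18194 genes, with a threshold of 0.05. SDs are between 2 arrays and SEs from the model. For arrays there is no read depth, and their number limits the precision. Members and gene lists were chosen with earlier results of these data known. Named list genes are up to 4 with the largest changes past the threshold per list and comparison, or up to 2 where none passed. Promoters are from RefSeq, GRCm38.p6. Simulated data for WT LMPP against WT LSK FLT3- had 200 of 18194 genes changed, whereas 34.1% of genes were called in the measured comparison. In the simulation, 98.3% of genes changed by 1 (log2) and 100% of those changed by 2 were recovered, and 6.29% of calls were false. Smaller changes were not simulated, so these shares do not carry over to the measured data. Figures used matplotlib 3.10.9. The closing section gives the effect of other normalizations, filters and fits.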

Additional observations from a re-analysis of the deposited data

How the results depend on the processing

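Alternatives were a fit on the 4 arrays of a comparison, the replicate number as a block, a test without the dimmest 40% of genes, averaging each gene over its probe sets, quantile normalization, median centring, a variance trend with robust estimation, and leaving out each array in turn. Over 13 settings Clec4d and Clec4e ranged from 1.74 to 2.13 and from 1.43 to 2.01 for E2A-KO LMPP minus WT LMPP, and from -2.22 to -1.78 and from -3.16 to -2.59 for WT LMPP minus WT LSK FLT3-; the pair was picked with these differences known, so the ranges lend them no support. Leaving out either array of the group not compared repeats the fit on the 4 arrays of a comparison, so the settings counted are not all separate. Over the 7 genes and 3 comparisons, 241 settings left direction and call as they were, 9 lost the call and 11 turned the sign of an uncalled difference. For E2A-KO LMPP minus WT LMPP these were Clec4b1 (0.045 without E2A-KO LMPP replicate 1, -0.17 without replicate 2), Clec4n (-0.0094 without WT LMPP replicate 2, 0.17 without replicate 1) and Clec4a2 (0.013 without WT LMPP replicate 2, -0.34 without replicate 1), beside Cxcl1 outside the family (0.080 without WT LMPP replicate 1, -0.71 without replicate 2). For WT LMPP minus WT LSK FLT3- they were Clec4b1 (-0.0081, quantile) and Clec7a (-0.036, median centring; -0.14 without WT LMPP replicate 2). For E2A-KO LMPP minus WT LSK FLT3- they were Clec4d (0.28, quantile; 0.018 without E2A-KO LMPP replicate 1, -0.37 without replicate 2) and Clec4b1 (-0.075, quantile; -0.063, median centring; -0.032 without E2A-KO LMPP replicate 2, 0.18 without replicate 1).

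Among all genes, 6198 were called for WT LMPP minus WT LSK FLT3- (3496 with quantile normalization; 2370 to 6410 with 1 array left out), 250 for E2A-KO LMPP minus WT LMPP (89 on the 4 arrays; 548 with the variance trend; 89 to 164 with 1 array left out) and 6822 for E2A-KO LMPP minus WT LSK FLT3- (3617 with quantile normalization; 2944 to 7515 with 1 array left out). The cause was not tested. Of the 7 genes, 4, 2 and 4 were called in these comparisons. Leaving out the dimmest 40% of genes left 3 of the 7 tested and gave 2, 2 and 2, because fewer were tested, and leaving out 1 array gave 2 to 4, 2 to 2 and 3 to 4. Median centring moved the median of all genes to -0.12 (main -0.01) between the wild-type stages and to -0.16 (main -0.02) in E2A-KO LMPP against WT LSK FLT3-, so the stage differences are relative to that shift.

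No label ties same-numbered arrays to 1 source, and deviations of same-numbered arrays correlated at 0.02, -0.04 and -0.02. With the replicate block 5914, 200 and 6535 genes and 4, 2 and 4 of the 7 were called. Of the list genes named by the rule given above, 17 of 28 calls between the stages and 5 of 9 in the knockout held in every setting run on them. Values below the array median of about 4.0 (log2) give no exact size.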
